A study of Homo sapiens with 16 samples.

Results

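The cyclin-dependent kinase inhibitors are the genes whose products bind cyclin-dependent kinases and hold back the cell cycle. The 6 genes CDKN1A, CDKN1B, CDKN1C, CDKN2B, CDKN2C and CDKN2D were taken by symbol from the deposited count table of 60603 genes, and all 6 were found in it. They were followed across 2 human acute myeloid leukaemia cell lines and 4 treatments. CDKN1A rose most in U-937 given both agents, by 23.7-fold over DMSO. In SKNO-1 the same gene fell with ATRA and rose with Corin. CDKN2D rose under every treatment in both lines, though its call with ATRA in SKNO-1 was lost in part of the alternative analyses. CDKN2B rose in U-937 with both agents, and CDKN2C fell with Corin in SKNO-1 but rose with ATRA in U-937.

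The family has a pair of branches. The Cip/Kip proteins, encoded by CDKN1A (p21), CDKN1B (p27) and CDKN1C (p57), bind whole complexes of cyclin and kinase and act on CDK2 in particular. The INK4 proteins, encoded by CDKN2B (p15), CDKN2C (p18) and CDKN2D (p19), bind CDK4 and CDK6 and keep them from pairing with D-type cyclins. With these kinases inhibited, the retinoblastoma protein and its relatives stay bound to E2F factors, and genes for DNA replication are not switched on. In myeloid cells, leaving the cell cycle accompanies terminal differentiation, and retinoic acid is a classic inducer of that step.

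SKNO-1 is a myeloid line whose cells hold the RUNX1-RUNX1T1 fusion. U-937 resembles monocytes. Cells of each line received DMSO (the solvent), ATRA (all-trans retinoic acid, the ligand of retinoic acid receptors), Corin (a dual inhibitor of the demethylase LSD1 and the histone deacetylases HDAC1 and HDAC2 in the CoREST complex) or ATRA and Corin together. Each agent was used at 0.1 µM for 24 h, and each of the 8 groups had 2 libraries of total RNA. SKNO-1 medium also held GM-CSF at 10 ng/mL, so differences of line and of medium cannot be told apart. The labels do not say whether the 2 libraries of a group came from separate cultures, so p-values measure the spread between these libraries, which may be technical.

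The estimated counts summed to 32.8 to 37.8 M in each SKNO-1 library and to 28.4 to 37.6 M in each U-937 library. The lines matched their names by markers: RUNX1T1 was at 26.9 TPM in SKNO-1 with DMSO and 0.005 TPM in U-937, while HOXA9 was listed at 0 in SKNO-1 and at 37.9 TPM in U-937. Of 6 markers of white and myeloid cells, PTPRC, SPI1 and CD33 were at 11.4 to 70.4 TPM in the DMSO groups of both lines, while MPO, a granule enzyme, was at 858 TPM in SKNO-1 and 0.065 TPM in U-937. ITGAM and CSF1R, genes of maturing myeloid cells, were at 0.18 and 0.08 TPM in SKNO-1 with DMSO and at 27.6 and 2.31 with both agents. In U-937 CSF1R was at 0.33 TPM with DMSO and 7.54 with both agents, and ITGAM was at 1.64 and 1.83 TPM in the DMSO libraries and 94.9 and 89.1 in those with both agents. The part of these differences in the results below was not tested. Of the markers of other cell types, CD3E, MS4A1, EPCAM and COL1A1 were at 0 to 0.88 TPM in all libraries. The SKNO-1 DMSO pair stood apart from the other pairs. Over 9442 genes the log2 difference between its libraries had an SD of 0.363, against 0.110 to 0.207 in the other 7 groups, and it correlated with the GC content of the genes at r = 0.80. Each of the 10 changes called against DMSO in SKNO-1 below kept its direction when either library of that pair was left out. Those fits no longer hold the spread within the pair, so they cannot test the calls against it.

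Counts are given as CPM, counts for every 1 M reads on TMM-scaled library totals. A gene is called changed where the p of the quasi-likelihood test of edgeR, adjusted by Benjamini-Hochberg over all genes tested, is under 0.05. All 6 genes passed the filter on low counts in both lines, but CDKN2B did so in SKNO-1 only through the Corin group, its highest there, with 15 and 14 counts. In bulk RNA, a change in the number of cells of a kind and a change of RNA per cell cannot be told apart.

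With ATRA, 2 of the 6 genes were called in SKNO-1, where 6.76% of the 17479 genes tested were called, and 3 of 6 in U-937, where 41.8% of 17717 were called. With Corin, 5 of 6 were called in SKNO-1 against 37.9% of all genes, and 2 of 6 in U-937 against 12.9%. With both agents, 3 of 6 were called in SKNO-1 against 46.7% of all genes, and 3 of 6 in U-937 against 65.3%. The shares for both agents lie near the shares of all genes, so the count of members there says nothing particular to the family. All 3 calls of both agents in U-937 were rises, so that 3 of 6 members rose, against 33.1% of all genes. With both agents the 6 genes had a median log2 change of 0.70 in SKNO-1, beside 0.05 over all genes tested. That median lies between CDKN1C (0.54) and CDKN2B (0.85), both at few counts and neither called. In U-937 the medians were 0.89 and 0.03. The value of 0.89 lies between CDKN1B (-0.18, not called) and CDKN2D (1.96). Neither median of the 6 genes therefore describes a rise shared by them.

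**Figure D1:**
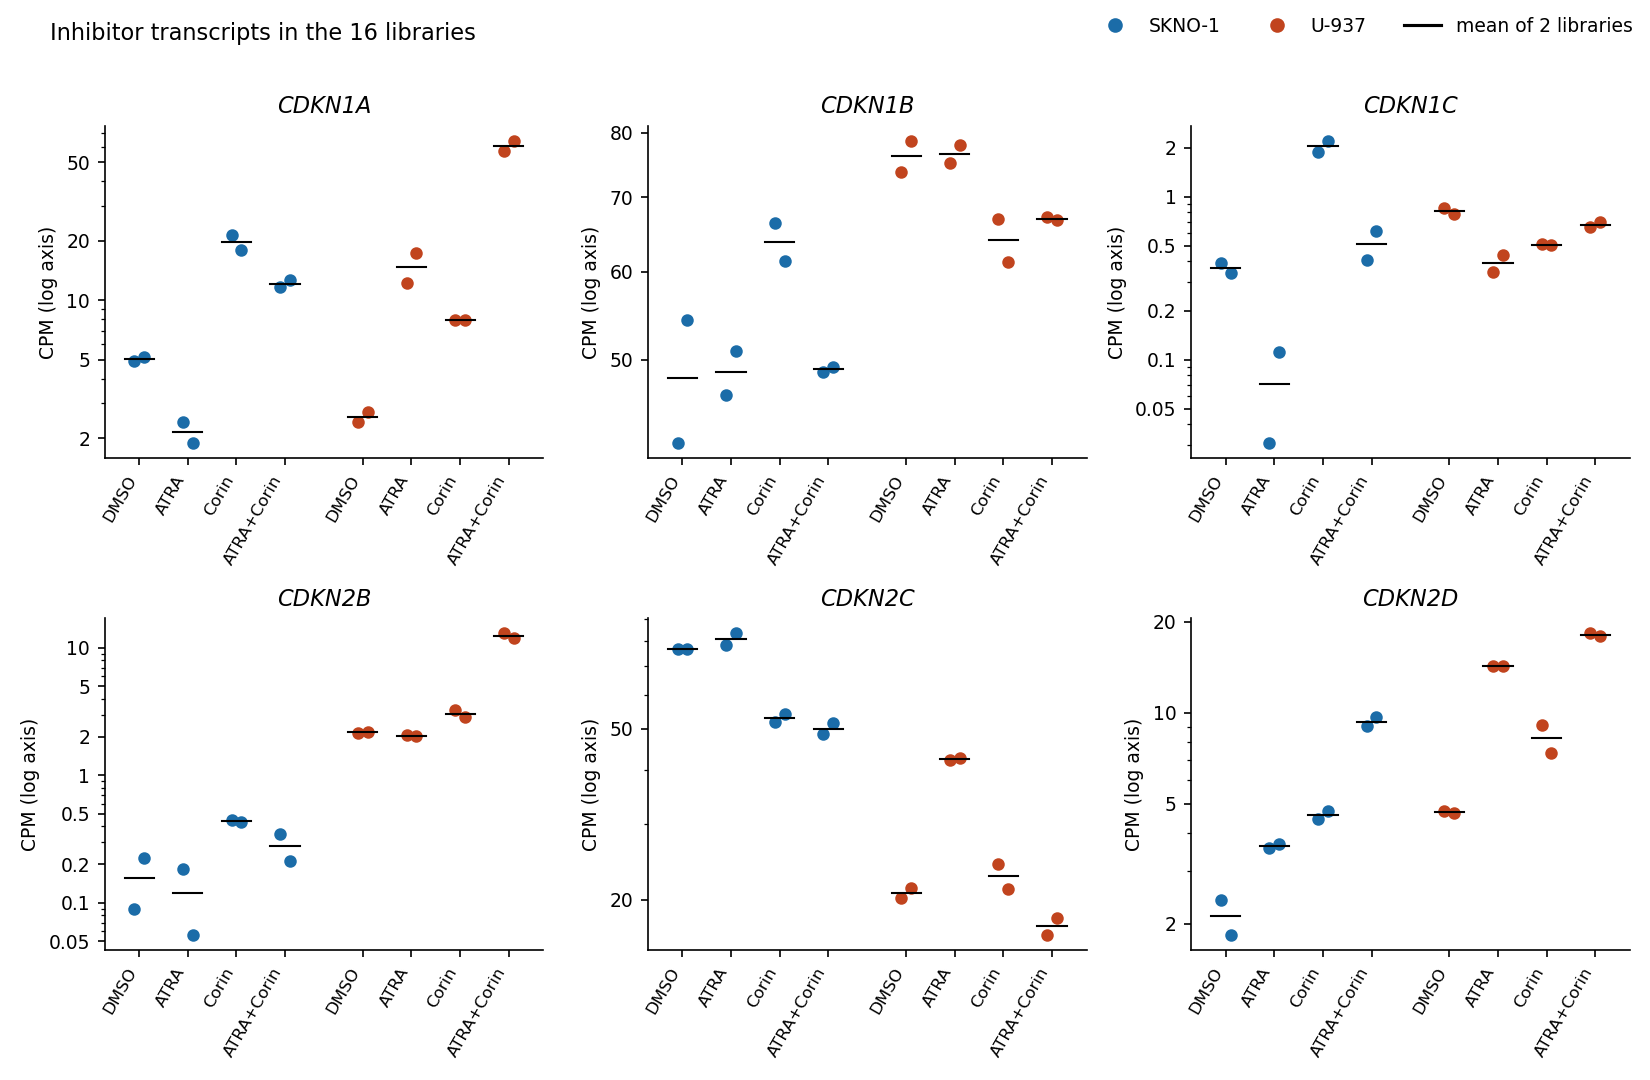
Level of each inhibitor gene in every library, in CPM on a log axis, by line and treatment, with each point a library and each bar the mean of 2. CDKN1A reaches 57.3 and 64.1 CPM in U-937 with both agents, CDKN1B stays between 42.1 and 78.7 CPM throughout, and CDKN2C is higher in every SKNO-1 library than in every U-937 library.

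CDKN1A encodes p21, the inhibitor best known as a target of p53 and as a gene induced when myeloid cells differentiate. It lies on chromosome 6 from 36676460 to 36687337 on the plus strand of GRCh38 (ENSG00000124762.13). In SKNO-1 it was at 4.92 and 5.13 CPM with DMSO, at 2.40 and 1.89 with ATRA, at 21.3 and 18.0 with Corin and at 11.6 and 12.6 with both agents. In U-937 it was at 2.42 and 2.72 CPM with DMSO, at 12.3 and 17.3 with ATRA, at 7.93 and 7.98 with Corin and at 57.3 and 64.1 with both agents. The libraries of the 4 groups did not overlap within either line. The order of the 8 groups by mean ran from U-937 with both agents (60.7 ± 4.81 CPM, SD, n = 2) to SKNO-1 with ATRA (2.14 ± 0.363), and the only neighbours in that order whose libraries overlapped were U-937 with ATRA and SKNO-1 with both agents.

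In SKNO-1, CDKN1A fell by 1.19 on the log2 scale with ATRA (SE 0.165, adjusted p = 0.00367), rose by 1.97 with Corin (SE 0.149, adjusted p = 6.19e-05) and rose by 1.32 with both agents (SE 0.149, adjusted p = 0.000281). The fall with ATRA was not called in a fit of only the DMSO and ATRA libraries (adjusted p = 0.0744). With the GC trend removed, the log2 changes of CDKN1A were -1.28 with ATRA, 1.98 with Corin and 0.99 with both agents. Adding Corin to ATRA raised it by 2.51 (adjusted p = 2.22e-05). In that comparison 4 of 6 members were called, against 44.8% of all genes. Adding ATRA to Corin lowered it by 0.65, a log2 change of -0.65 (adjusted p = 0.0272), with 3 of 6 members called against 10.4% of all genes. That call was lost when any of the 4 libraries compared was left out (adjusted p from 0.0859 to 0.238), and the log2 change became -0.99 with the GC trend removed.

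In U-937, CDKN1A rose by 2.52 with ATRA (SE 0.168, adjusted p = 3.48e-11), by 1.63 with Corin (SE 0.174, adjusted p = 3.66e-07) and by 4.57 with both agents (SE 0.165, adjusted p = 1.57e-16). The level with both agents was above either agent alone, by 2.04 on the log2 scale over ATRA (adjusted p = 1.91e-11) and by 2.93 over Corin (adjusted p = 4.74e-14). Both of these comparisons had 4 of 6 members called, against 47.4% and 60.5% of all genes. The calls of CDKN1A in U-937 given here held in all 16 alternative analyses of each comparison.

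The bases before the RefSeq start of CDKN1A are shown because this gene had the widest range of the 6 in U-937. Those of CDKN2D are shown because it rose with CDKN1A under Corin and under both agents in both lines. With ATRA in SKNO-1, CDKN1A fell while CDKN2D rose. Those of CDKN1B, which moved least, are set beside them. Capitals mark matches to GGGCGG (the GC box, bound by Sp1-like factors), CCAAT (the CCAAT box), TATAAA (the TATA box), the hexamer AGGTCA (bound by nuclear receptors such as the retinoic acid receptors) or CACGTG (the E-box), read on both strands. The sequences are from RefSeq on GRCh38.p14, cover chr6:36678464-36678709 (plus strand), chr19:10569060-10569229 (minus strand) and chr12:12717118-12717367 (plus strand), and leave out bases inside exons.
CDKN1A: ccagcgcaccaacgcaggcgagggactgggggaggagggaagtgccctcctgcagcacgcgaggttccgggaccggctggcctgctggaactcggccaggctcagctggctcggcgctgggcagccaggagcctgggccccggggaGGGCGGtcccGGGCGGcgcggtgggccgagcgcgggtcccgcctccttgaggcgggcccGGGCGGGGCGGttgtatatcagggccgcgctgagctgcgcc
CDKN2D: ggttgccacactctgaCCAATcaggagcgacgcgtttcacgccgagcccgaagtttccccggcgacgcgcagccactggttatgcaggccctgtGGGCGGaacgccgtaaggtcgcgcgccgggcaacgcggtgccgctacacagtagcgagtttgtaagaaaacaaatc
CDKN1B: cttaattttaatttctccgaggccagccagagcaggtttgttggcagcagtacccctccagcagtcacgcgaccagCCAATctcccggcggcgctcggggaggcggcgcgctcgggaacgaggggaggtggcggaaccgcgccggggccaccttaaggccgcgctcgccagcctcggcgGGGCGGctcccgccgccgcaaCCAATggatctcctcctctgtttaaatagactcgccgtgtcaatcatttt
In the full window of 250 bases, CDKN1A held 4 GC boxes, CDKN2D held 2 GC boxes and 1 CCAAT box, and CDKN1B held 1 GC box and 2 CCAAT boxes. Of the 34943 promoter windows in the table, 42.5% held a GC box and 32.0% a CCAAT box. None of the 3 windows held the TATA box, the nuclear receptor hexamer or the E-box as spelled above, which were in 10.8%, 12.1% and 6.32% of all windows. A match describes the letters and is no evidence of binding. CDKN1C had no entry in that table.

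CDKN1B encodes p27, an inhibitor whose protein is controlled largely through its turnover by ubiquitin ligases. It lies on chromosome 12 from 12685498 to 12722369 on the plus strand (ENSG00000111276.11). In SKNO-1 it was at 42.1 and 54.3 CPM with DMSO, at 46.5 and 51.0 with ATRA, at 66.3 and 61.3 with Corin and at 48.8 and 49.3 with both agents. In U-937 it was at 73.8 and 78.7 CPM with DMSO, at 75.2 and 78.1 with ATRA, at 66.9 and 61.2 with Corin and at 67.2 and 66.8 with both agents. Of the treatments against DMSO, Corin gave the only call, a rise of 0.41 on the log2 scale in SKNO-1 (SE 0.109, adjusted p = 0.0200). That rise was 0.24 without SKNO-1 DMSO replicate 1, and it was not called without Corin replicate 1 (adjusted p = 0.133), without Corin replicate 2 (adjusted p = 0.0653) or with only the libraries compared (adjusted p = 0.0793). In the other treatments against DMSO its log2 changes lay between -0.25 and 0.08, with standard errors of 0.0957 to 0.110. Of these, the change with both agents was called at 0.24 in SKNO-1 without DMSO replicate 2 (adjusted p = 0.00655) and at -0.30 in U-937 on library totals without further scaling (adjusted p = 0.00352). Both agents against Corin in SKNO-1 gave a log2 change of -0.33 (SE 0.109, adjusted p = 0.0908), which was not called. This difference was called in 7 of 16 alternative analyses. Among them were DESeq2 (adjusted p = 0.0367) and a fit of only the libraries compared (adjusted p = 1.67e-05). The start of the annotated gene overlaps GPR19 on the opposite strand, whose counts were 15 to 81 per library.

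CDKN1C encodes p57, made from an imprinted gene and tied to quiescence of blood stem cells. It lies on chromosome 11 from 2883213 to 2885775 on the minus strand (ENSG00000129757.13), and it was near the detection limit. In SKNO-1 it had 13 and 12 counts with DMSO, 1 and 4 with ATRA, 63 and 71 with Corin, and 13 and 20 with both agents. In U-937 it had 28 and 24 counts with DMSO, 13 and 15 with ATRA, 20 and 16 with Corin, and 23 and 21 with both agents. SKNO-1 with Corin thus stood above the other 7 groups, at 2.04 ± 0.216 CPM (SD, n = 2), and the next group by level was U-937 with DMSO at 0.816 ± 0.0423 CPM.

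The rise of CDKN1C with Corin in SKNO-1 was 2.48 on the log2 scale (SE 0.349, adjusted p = 0.00111). With ATRA the log2 change was -2.23 in SKNO-1 (SE 0.569, adjusted p = 0.0563) and -1.05 in U-937 (SE 0.429, adjusted p = 0.0506), and neither passed the threshold. The pair of differences did cross it in 6 and 5 of 16 alternative analyses. In SKNO-1 the gene was lower with both agents than with Corin, at a log2 change of -1.94 (SE 0.335, adjusted p = 0.0110), and higher with both agents than with ATRA, at 2.77 (SE 0.540, adjusted p = 0.00376). The lower level with both agents than with Corin was not called when any of the 4 libraries compared was left out (adjusted p from 0.0689 to 0.118). Of its neighbours, SLC22A18, a transporter gene, had 1 and 0 counts in SKNO-1 with DMSO and 2 and 2 with ATRA. It had 16 and 17 with Corin and 16 and 11 with both agents. In U-937 it had 74 and 51 counts with DMSO, 263 and 236 with ATRA, 92 and 81 with Corin, and 344 and 255 with both agents. No change of CDKN1C against DMSO was called in U-937. KCNQ1OT1, the noncoding RNA that silences this imprinted region in cis, had 2 to 7.98 estimated counts in the SKNO-1 libraries and 1000 to 4994 in those of U-937.

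CDKN2B encodes p15, an INK4 inhibitor induced by TGF-beta in many cells and often silenced in myeloid leukaemia. It lies on chromosome 9 from 22002903 to 22009305 on the minus strand (ENSG00000147883.12). In U-937 it was at 2.15 and 2.20 CPM with DMSO, at 2.08 and 2.02 with ATRA, at 3.23 and 2.86 with Corin and at 13.0 and 12.0 with both agents. Only the 2 libraries with both agents stood far above the others. In SKNO-1 it had 3 and 8 counts with DMSO, 6 and 2 with ATRA, 15 and 14 with Corin, and 11 and 7 with both agents, each under 0.5 CPM.

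Both agents raised CDKN2B in U-937 by 2.53 on the log2 scale (SE 0.194, adjusted p = 4.88e-11). The level was 2.61 above that with ATRA (SE 0.193, adjusted p = 6.67e-11) and 2.04 above that with Corin (SE 0.186, adjusted p = 1.38e-09). ATRA alone gave a log2 change of -0.08 (SE 0.211, adjusted p = 0.785) and Corin alone 0.49 (SE 0.204, adjusted p = 0.119). In SKNO-1 the log2 change with both agents was 0.85 (SE 0.651, adjusted p = 0.310), and with Corin 1.45 (SE 0.608, adjusted p = 0.0925). Leaving out 1 library moved the latter between 0.96 and 2.21, and at 2.21, without SKNO-1 DMSO replicate 2, it was called (adjusted p = 0.0487). The 3 calls in U-937 held in all 16 alternative analyses of each comparison.

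The antisense noncoding RNA CDKN2B-AS1 (ANRIL) overlaps CDKN2B on the opposite strand and did not follow it. It had 733 and 769 counts in U-937 with DMSO, 985 and 903 with ATRA, 666 and 679 with Corin, and 495 and 418 with both agents. Against DMSO it fell by 0.76 on the log2 scale with both agents (SE 0.125, adjusted p = 1.22e-05), where CDKN2B rose. MTAP, a nearby gene for an enzyme of methionine salvage, fell by 1.66 in the same comparison (SE 0.105, adjusted p = 1.59e-12). The library kit keeps strand per the labels, but whether counting used it is not given in the sources used here, so reads in the overlap could have gone to either gene, and their part in these values was not tested.

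The bases before the CDKN2B start, at chr9:22009306-22009555 (minus strand, RefSeq on GRCh38.p14), are shown because this gene departed most from the sum of the single agents. Capitals have the same meaning as above.
CDKN2B: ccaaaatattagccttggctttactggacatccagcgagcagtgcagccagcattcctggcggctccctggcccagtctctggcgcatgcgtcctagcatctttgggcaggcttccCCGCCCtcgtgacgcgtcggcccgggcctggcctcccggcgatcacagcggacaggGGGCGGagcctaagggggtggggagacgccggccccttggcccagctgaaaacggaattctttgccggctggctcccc
The window held 2 GC boxes and no match to the other 4 motifs.

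CDKN2C encodes p18, an INK4 inhibitor that restrains the cycling of blood progenitors. It lies on chromosome 1 from 50960745 to 50974634 on the plus strand (ENSG00000123080.12). In SKNO-1 it was at 76.8 and 76.8 CPM with DMSO, at 78.5 and 83.5 with ATRA, at 52.0 and 54.3 with Corin and at 48.6 and 51.5 with both agents. In U-937 it was at 20.1 and 21.3 CPM with DMSO, at 42.2 and 42.7 with ATRA, at 24.2 and 21.2 with Corin and at 16.5 and 18.1 with both agents. Every SKNO-1 library was above every U-937 library, and within U-937 the ATRA libraries stood alone at the top.

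In SKNO-1, CDKN2C had a log2 change of -0.53 with Corin (SE 0.0668, adjusted p = 0.000684) and of -0.57 with both agents (SE 0.0669, adjusted p = 0.000353), both called lower, while the change with ATRA was 0.11 (SE 0.0662, adjusted p = 0.436). With the GC trend removed, the fall with both agents was -0.91. In U-937 it rose by 1.03 with ATRA (SE 0.111, adjusted p = 6.31e-08). Adding Corin to ATRA there gave a log2 change of -1.29 (SE 0.112, adjusted p = 1.14e-09), and against DMSO both agents gave -0.25 (SE 0.114, adjusted p = 0.0554), a difference that passed the threshold in 7 of 16 alternative analyses. Both agents against Corin gave -0.39 (SE 0.113, adjusted p = 0.00488), and that call was lost without U-937 ATRA+Corin replicate 1 (adjusted p = 0.0586) or Corin replicate 1 (adjusted p = 0.0693).

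CDKN2D encodes p19, an INK4 inhibitor of CDK4 and CDK6. It lies on chromosome 19 from 10566460 to 10569059 on the minus strand (ENSG00000129355.6). In SKNO-1 it was at 2.40 and 1.83 CPM with DMSO, at 3.57 and 3.69 with ATRA, at 4.46 and 4.73 with Corin and at 9.01 and 9.65 with both agents. In U-937 it was at 4.71 and 4.65 CPM with DMSO, at 14.3 and 14.3 with ATRA, at 9.13 and 7.35 with Corin and at 18.3 and 17.9 with both agents. Within each line the libraries of the 4 groups did not overlap, and both agents gave the highest level.

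CDKN2D rose in SKNO-1 by 0.82 on the log2 scale with ATRA (SE 0.176, adjusted p = 0.0306), by 1.12 with Corin (SE 0.174, adjusted p = 0.00181) and by 2.19 with both agents (SE 0.171, adjusted p = 4.86e-05). In U-937 it rose by 1.61 with ATRA (SE 0.148, adjusted p = 5.29e-09), by 0.82 with Corin (SE 0.152, adjusted p = 0.000469) and by 1.96 with both agents (SE 0.148, adjusted p = 3.72e-11). Of these 6 calls, that with ATRA in SKNO-1 was the one lost under alternatives: it was not called in 8 of 16, among them a fit of only the libraries compared (adjusted p = 0.230) and each fit without 1 of the ATRA, Corin or ATRA+Corin libraries (adjusted p from 0.0793 to 0.208). In the authors' deposited table of that comparison the log2 change of CDKN2D was 0.80 with an adjusted p of 0.472. With the GC trend removed, CDKN2D rose in SKNO-1 by 0.75 with ATRA, by 1.17 with Corin and by 1.76 with both agents. Adding ATRA to Corin raised CDKN2D by 1.07 in SKNO-1 (SE 0.161, adjusted p = 0.00609), a value that was 0.59 with the GC trend removed, and the call was lost without any of the 4 libraries compared (adjusted p from 0.0547 to 0.0907). In U-937 the step from ATRA to both agents was 0.35 (SE 0.135, adjusted p = 0.0359), not called in 7 of 16 alternatives, and the step from Corin to both agents was 1.14 (SE 0.139, adjusted p = 1.84e-07).

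**Figure D2:**
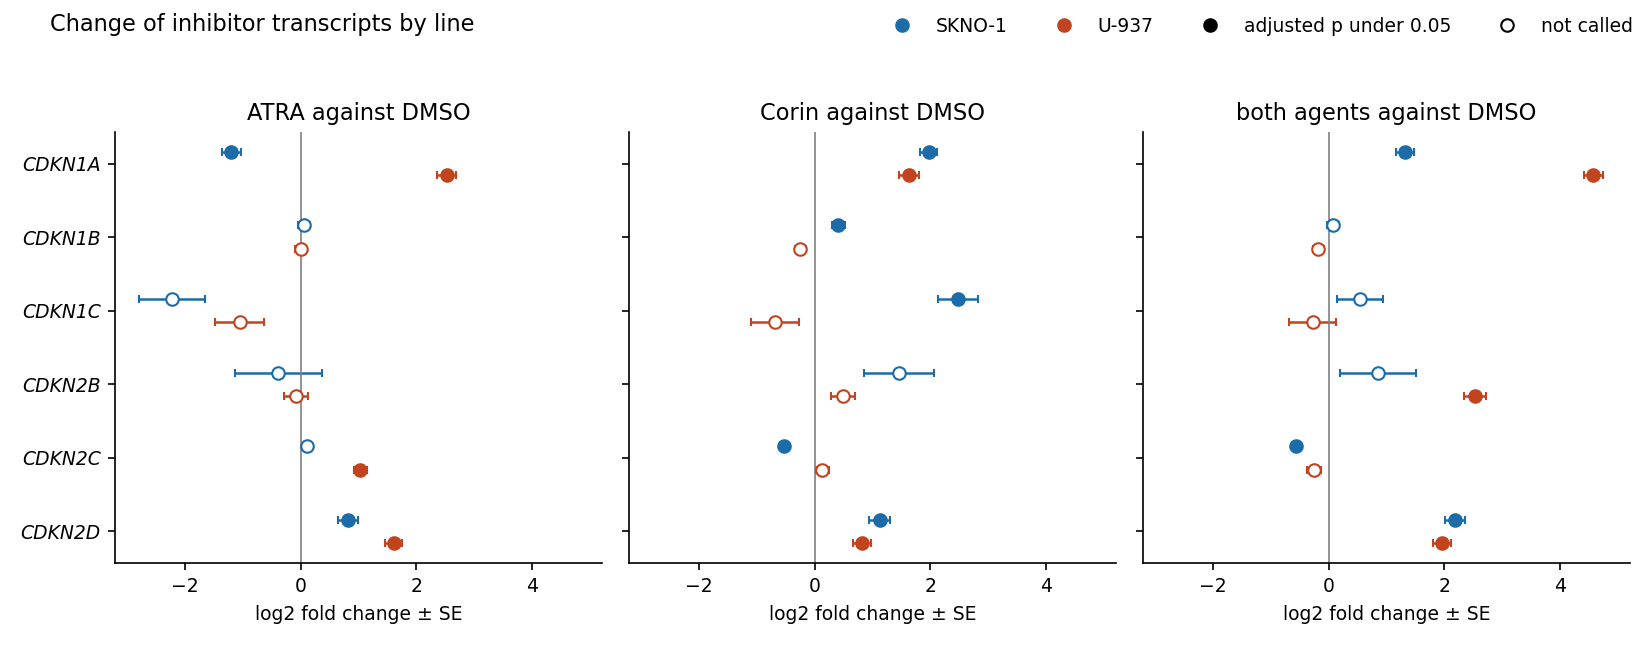
Log2 fold change with its standard error for each inhibitor gene under ATRA, Corin and both agents against DMSO, by line, with filled points for genes called at an adjusted p under 0.05. CDKN1A lies on opposite sides of 0 in the 2 lines with ATRA (-1.19 in SKNO-1, 2.52 in U-937), and CDKN2D lies above 0 in all 6 comparisons.

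The makeup of the transcripts of these 6 genes, a part of the family, was compared in TPM. The authors scaled TPM by gene length, which allows levels of different genes to be set side by side. CDKN2C was the most abundant of the 6 in SKNO-1 with DMSO, with a mean of 72.0% of their summed TPM, ahead of CDKN1B at 23.1% and CDKN1A at 2.65%. In U-937 with DMSO the order was CDKN1B at 57.3%, CDKN2C at 31.7%, CDKN2D at 6.68% and CDKN1A at 2.38%. With both agents in U-937, CDKN1B and CDKN1A stood level at 31.6% and 30.6%, followed by CDKN2C at 16.5%, CDKN2D at 16.2% and CDKN2B at 4.61%. In SKNO-1 with both agents CDKN2C still led with 54.4%, and CDKN1A reached 7.49%. CDKN1C was under 2% in every library.

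The summed TPM of the 6 genes was 60.6 ± 3.47 TPM in U-937 with DMSO and 73.1 ± 0.891 with both agents (SD, n = 2). In SKNO-1 it was 55.2 ± 4.68 with both agents, while the 2 DMSO libraries lay far apart at 61.2 and 96.1 TPM. The shares within that pair were closer than the sums, with CDKN2C at 71.7% and 72.2%.

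**Figure D3:**
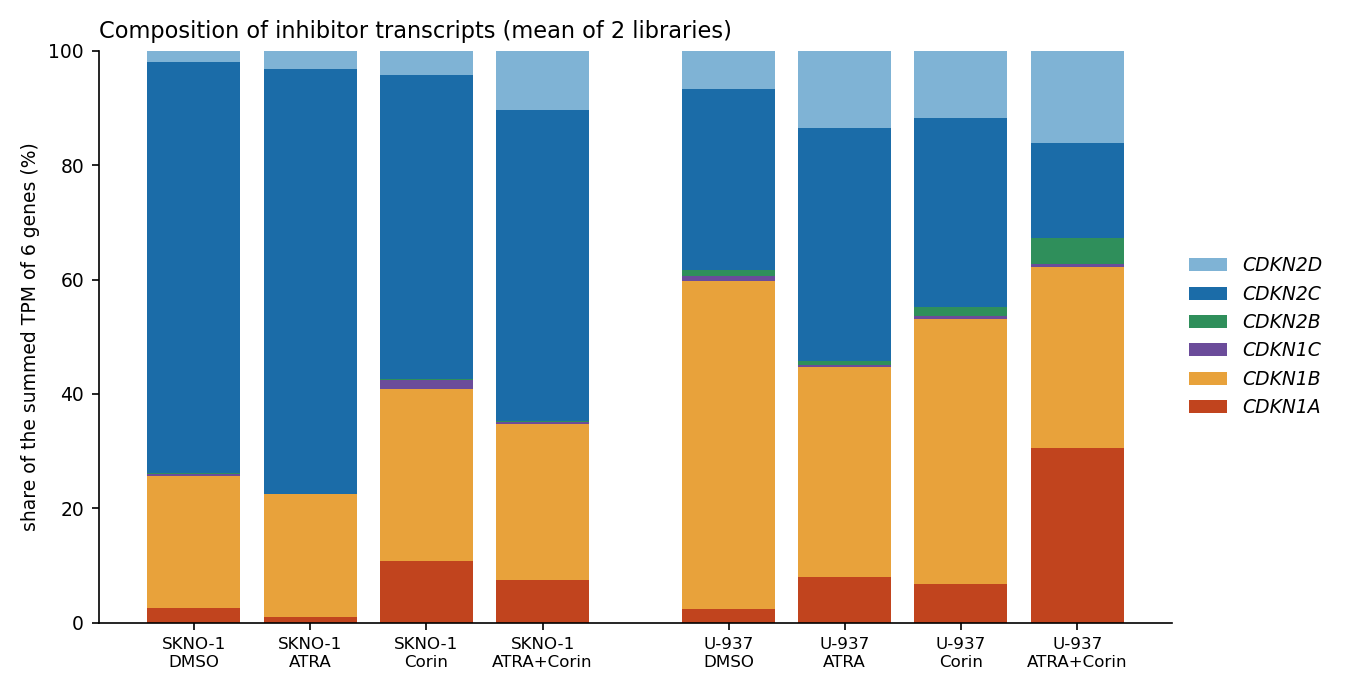
Share of each gene in the summed TPM of the 6 inhibitor genes, in percent, as the mean of 2 libraries for each line and treatment. CDKN2C fills 72.0% of the SKNO-1 DMSO bar and 16.5% of the U-937 bar for both agents, where CDKN1A fills 30.6%.

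Whether both agents together gave more or less than the sum of their single log2 effects was tested as an interaction within each line. In U-937, 2 of 6 members departed from the sum, against 23.4% of all genes. CDKN2B was above it: the single effects summed to 0.41 and the combined effect was 2.53, a departure of 2.12 (SE 0.281, adjusted p = 3.33e-06). CDKN2C was below it: the single effects summed to 1.17 and the combined effect was -0.25, a departure of -1.42 (SE 0.158, adjusted p = 2.54e-07). Both calls held in all alternative analyses. For CDKN1A in U-937 the single effects summed to 4.16 and the combined effect was 4.57, a departure of 0.41 with SE 0.223 (adjusted p = 0.207). Leaving out 1 library moved it between 0.18 and 0.68, and without U-937 ATRA replicate 2, at 0.68, it was called (adjusted p = 0.0338).

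In SKNO-1, 0 of 6 members were called by edgeR and 0 by DESeq2, with 2 (CDKN1A and CDKN1B) at an unadjusted p under 0.05, and 0.463% of all genes were called by edgeR. The departure of CDKN1A there was 0.54 (SE 0.217, adjusted p = 0.331) and that of CDKN2D 0.25 (SE 0.238, adjusted p = 0.630). Without SKNO-1 DMSO replicate 2, CDKN1A and CDKN1B were called, and so were 30.9% of all genes.

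**Figure D4:**
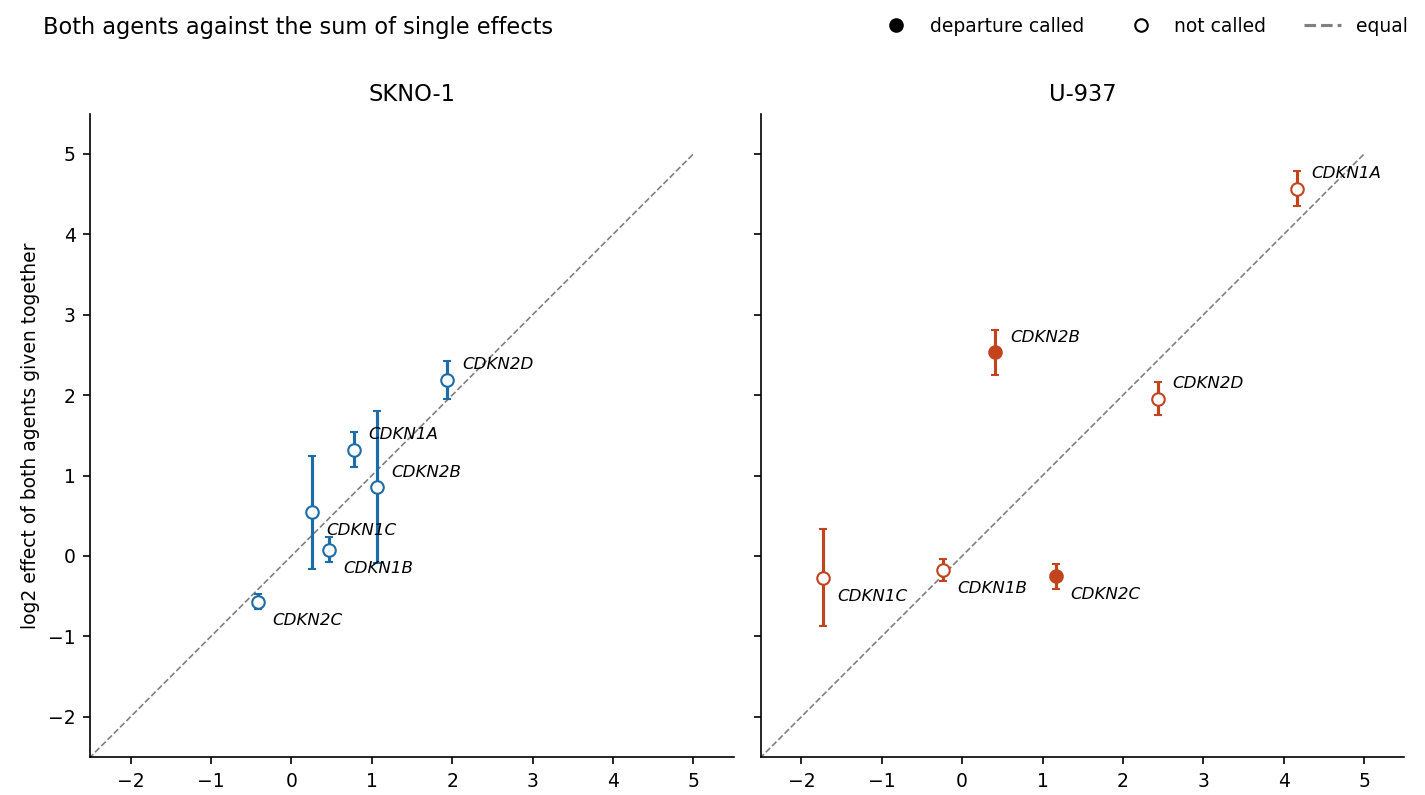
Log2 effect of both agents (vertical axis) against the sum of the log2 effects of ATRA and of Corin (horizontal axis) for each inhibitor gene in each line, with the standard error of the departure as the bar and a dashed line of equality. In U-937, CDKN2B lies above the line by 2.12 and CDKN2C below it by a departure of -1.42, and in SKNO-1 all 6 points are open because 0 departures were called.

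Untreated, the lines differed in all 6 members, against 64.8% of the 19872 genes tested across both lines. U-937 was higher for CDKN2B by 3.73 on the log2 scale (adjusted p = 3.08e-08), for CDKN1C by 1.16 (adjusted p = 0.0112), for CDKN2D by 1.15 (adjusted p = 9.76e-06) and for CDKN1B by 0.66 (adjusted p = 1.78e-05). It was lower for CDKN2C, at a log2 difference of -1.89 (adjusted p = 1.68e-12), and for CDKN1A, at -0.97 (adjusted p = 0.000142). The difference of CDKN1C was not called with DESeq2 (adjusted p = 0.0615) or without SKNO-1 DMSO replicate 2 (adjusted p = 0.0640).

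The responses of the lines were compared by the interaction of line and treatment over all 16 libraries. The ATRA response differed for 3 of 6 members, against 19.4% of all genes: CDKN1A by 3.76 on the log2 scale (SE 0.256, adjusted p = 6.28e-09), CDKN2C by 0.96 (SE 0.130, adjusted p = 2.71e-05) and CDKN2D by 0.83 (SE 0.233, adjusted p = 0.0158), each higher in U-937. The difference of CDKN2D was not called in 8 of 24 alternatives: with only the libraries compared (adjusted p = 0.0524), without SKNO-1 DMSO replicate 1, and without either library of SKNO-1 ATRA, U-937 ATRA or U-937 DMSO (adjusted p up to 0.130). The Corin response differed for 3 of 6 members, against 12.8% of all genes. It was lower in U-937 for CDKN1C, at -3.16 (SE 0.504, adjusted p = 0.000270), and for CDKN1B, at -0.65 (SE 0.147, adjusted p = 0.00558), and higher for CDKN2C, at 0.66 (SE 0.132, adjusted p = 0.00218). For CDKN1A the Corin response differed by -0.34 (SE 0.241, adjusted p = 0.416).

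The response to both agents differed for 3 of 6 members, against 40.6% of all genes. It was higher in U-937 for CDKN1A, by 3.29 (SE 0.237, adjusted p = 2.00e-09), for CDKN2B, by 1.73 (SE 0.581, adjusted p = 0.0237), and for CDKN2C, by 0.36 (SE 0.133, adjusted p = 0.0373), beside a median of -0.11 over all genes. The difference of CDKN2B was 0.95 (adjusted p = 0.513) without SKNO-1 DMSO replicate 2 and 1.41 (adjusted p = 0.0999) without SKNO-1 ATRA+Corin replicate 2. That of CDKN2C was lost in 13 of 24 alternatives and was 0.20 (adjusted p = 0.198) on library totals without further scaling. For CDKN2D it was -0.19 (SE 0.226, adjusted p = 0.561).

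The targets of the inhibitors were described from lists of the same pathway. Of 11 cyclins and their kinases, 10 fell with both agents in U-937, where 32.2% of all genes fell, and their median log2 change was -1.74, beside 0.03 for all genes. The largest changes were those of CCND2 (-3.93), CCNE1 (-2.93), CCNE2 (-2.45) and CCNA2 (-2.05), the cyclins of G1 and of S phase. Of the 11, 9 were below the sum of the single effects in U-937, where 15.3% of all genes were. In SKNO-1 with both agents 8 of 11 fell, where 22% of all genes did, with CDK6 at -1.28, CCNE1 at -0.89 and CCNB1 at -0.78. The other 3 were CCND3 and CDK1, both at -0.17 and not called, and CCND1, a D-type cyclin, which rose by 3.32 from 3 and 6 counts with DMSO to 42 and 41. CCND1 reached 10 counts in SKNO-1 only in the Corin and ATRA+Corin groups, through which it passed the filter. With ATRA in U-937, 2 of 11 rose (CCNE2 at 1.08 and CCND3 at 0.50) and 4 fell, led by CCND2 at -1.96, where 21.7% of all genes rose and 20.1% fell.

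Among the pocket proteins and E2F factors, which the kinases control, 7 of 10 tested fell and 1 rose in U-937 given both agents, where 32.2% of all genes fell, at a median of -0.82. E2F5 changed by -4.53, E2F1 by -2.84 and E2F8 by -2.53. In SKNO-1 with both agents 5 of 10 tested fell, against 22% of all genes, with a median of -0.26, led by E2F8 at -0.93 and E2F7 at -0.48. The ubiquitin ligase parts that turn over inhibitor proteins fell in 9 of 9 cases in U-937 given both agents, against 32.2% of all genes, at a median of -0.94, among them DTL (-3.93), the receptor that directs p21 to destruction, and SKP2 (-1.85) and CKS1B (-1.78), which do so for p27. In SKNO-1, 7 of these 9 fell with both agents, against 22% of all genes, with a median of -0.44, led by SKP2 at -0.80. RNA levels do not show whether the inhibitor proteins changed.

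Of 12 transcription factors known to act on inhibitor genes, 7 rose and 3 fell in U-937 given both agents, where 33.1% of all genes rose, and the list's median was 0.70. MYC, which represses CDKN1A and CDKN2B in other settings, changed by -5.55, IRF1 by 4.11, the granulocyte factor CEBPE by 3.23 and KLF6 by 1.78. In SKNO-1 given both agents 6 rose, where 24.7% of all genes did, and 3 fell, at a median of 0.50, among them EGR1 at -2.38, IRF1 at 2.17 and CEBPA at 1.58. Of the p53 target genes other than CDKN1A, 6 of 11 tested rose and 1 fell in U-937 given both agents. Over all genes, 33.1% rose and 32.2% fell there. The list's median was 0.57, with AEN at -2.67, ZMAT3 at 2.23 and BBC3 at 1.60. In SKNO-1 with both agents, 4 of 12 rose and 3 fell. These counts lie near the shares of all genes, of which 24.7% rose and 22% fell. The median was 0.26, with TNFRSF10B at 2.13 and SESN2 at 1.42.

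**Figure D5:**
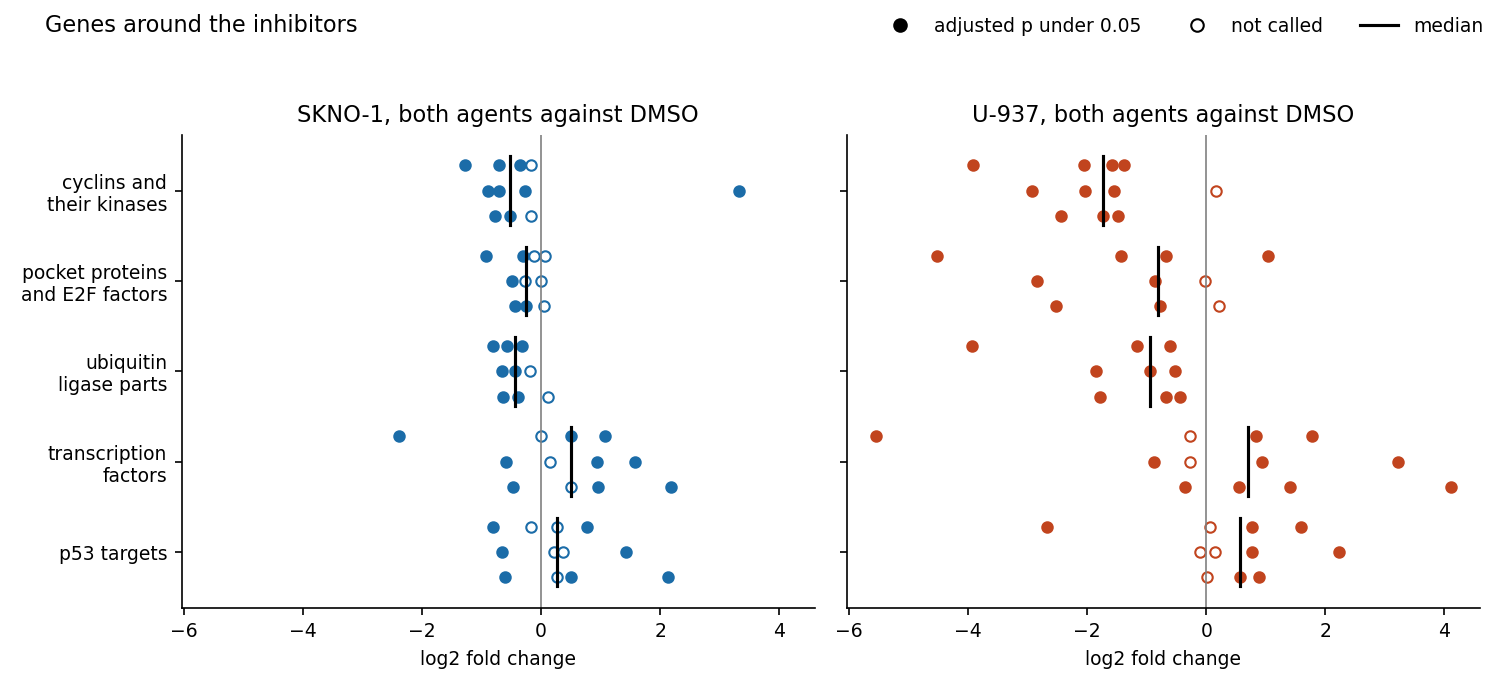
Log2 fold change with both agents against DMSO of each gene in 5 lists around the inhibitors, by line, with filled points for called genes and a bar for the median of each list. In U-937 the cyclins and kinases have a median of -1.74 and the ubiquitin ligase parts of -0.94, and in SKNO-1 the medians are -0.52 and -0.44.

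The genes whose pattern was most like each member were sought by Pearson's r of log2 CPM, centred on each line, over the 16 libraries. These libraries share treatments and depth, so r is given as a description. CDKN1A was most like ANXA1 (r = 0.99), an annexin of myeloid cells, and FCER1G (r = 0.98), the signalling chain of Fc receptors. FCGR1B (r = 0.98) has near-identical paralogs and its counts are uncertain. CDKN2D was most like CD68 (r = 0.97), a lysosomal protein of macrophages, then MYO1F (r = 0.97) and GPR132 (r = 0.97). CDKN2B was most like FGGY (r = 0.96), SESN1 (r = 0.96) and SCARB2 (r = 0.96). CDKN2C was most like FADS1 (r = 0.94), STAG1 (r = 0.94) and GNB1 (r = 0.93), and CDKN1C was most like TCN1 (r = 0.95), OCIAD2 (r = 0.95) and NMT2 (r = 0.94). The values for CDKN1B were lower, with SSBP2 at r = 0.91, RCBTB1 at 0.87 and EID1 at 0.86.

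The authors' deposited tables of each treatment against DMSO called 16 of the 36 member results at an adjusted p under 0.05, and all 16 were among the 18 called here. The other 2 were CDKN2D with ATRA and CDKN1B with Corin, both in SKNO-1.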

How the data were processed

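Total RNA of the 16 libraries was made into stranded libraries with an ERCC spike-in mix, per the labels' protocols. Per the submitters' processing notes, Trimmomatic, STAR, RSEM and DESeq2 were used and the build was hg38. The versions and the annotation release are not given in the sources used here. The authors deposited RSEM estimated counts for 60603 genes, and 20.4% of the positive values were not whole, so genes with near-identical copies are uncertain. They also deposited TPM values per library, and tables with a log2 fold change and a p-value, adjusted by DESeq2, per the file headers. The table holds 0 spike-in entries. Paired ends are named in the labels but single ends in the file names, so whether both mates were counted is not known.

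Here the estimated counts were rounded. Genes were kept by filterByExpr of edgeR 4.0.16 (R 4.3.3), scaled by TMM and fitted per line with the robust quasi-likelihood test, without a replicate block, which left 4 residual degrees of freedom. Contrasts between lines used all 16 libraries, with 8 residual degrees of freedom. Common dispersion gave a biological coefficient of variation of 0.107 for SKNO-1 and of 0.0945 for U-937. The SE of a log2 change is that change, unshrunken, over the square root of its F. The fit was tested on simulated data with known changes in genes with higher counts. All genes there shared the same dispersion and no GC trend was put in. That test therefore does not cover the spread of the SKNO-1 DMSO pair or genes at few counts. CPM values are from TMM over all 16 libraries. Positions are of GENCODE 44 on GRCh38. Alternatives were size factors of the DESeq2 kind, library totals only, no filter, a replicate block, removal of the GC trend (with and without the block), DESeq2 1.42.0, only the libraries compared, and leaving out each library. Per list and comparison, up to 4 called genes with the largest changes may be named, and 3 like genes per member among those with a mean of at least 5 CPM. The members and lists were chosen with earlier results of these data known. Some markers of other cell types are not reported here.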

Additional observations from a re-analysis of the deposited data

Results flagged for a closer look

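Several responses differed between the lines by a test of the difference itself, the interaction of line and treatment in edgeR's quasi-likelihood fit of 16 libraries (log2 response in U-937 minus that in SKNO-1). For ATRA this held for CDKN1A at 3.76 (adjusted p = 6.28e-09), with -1.19 as the response of SKNO-1 and 2.52 as that of U-937. It held for CDKN2C at 0.96 (adjusted p = 2.71e-05), with responses of 0.11 and 1.03, and for CDKN2D at 0.83 (adjusted p = 0.0158), with 0.82 and 1.61.

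For Corin, the response of CDKN1C differed by -3.16 (adjusted p = 0.000270), from 2.48 in SKNO-1 to -0.68 in U-937. That of CDKN1B differed by -0.65 (adjusted p = 0.00558), from 0.41 to -0.25, and that of CDKN2C by 0.66 (adjusted p = 0.00218), from -0.53 to 0.14. For both agents, the response differed by 3.29 for CDKN1A (adjusted p = 2.00e-09), by 1.73 for CDKN2B (adjusted p = 0.0237) and by 0.36 for CDKN2C (adjusted p = 0.0373).

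All 9 differences kept their direction when either SKNO-1 DMSO library was left out, but not all kept their call. Without replicate 1, CDKN2D under ATRA was at 0.55 and CDKN2C under both agents at 0.34, and neither was called. Over all 24 alternatives, CDKN2D under ATRA was not called in 8 and CDKN2C under both agents in 13. CDKN2B under both agents was at 0.95 (adjusted p = 0.513) without replicate 2.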

How the results depend on the processing

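Of 96 member results, 50 were called. Of these 50, 38 were called in the same direction under all alternatives, 12 lost the call in 1 or more and 0 reversed. Of the 46 that were not called, 31 were called under no alternative. Fits without 1 library assume that the lone library of its group varies like the other groups. Correlations of same-numbered deviations ran from -0.486 to 0.417. These deviations also followed GC content, at r from -0.42 in SKNO-1 ATRA to 0.80 in SKNO-1 DMSO. The correlations therefore cannot settle whether replicate numbers pair the libraries. With a replicate block, 1 member was called for ATRA against DMSO in SKNO-1 (2 without it; 5.17% of all genes with it), CDKN2D being lost (adjusted p = 0.0664), and CDKN1A lost its call for both agents against Corin there (adjusted p = 0.0530). With only the libraries compared, 0 were called by edgeR for ATRA in SKNO-1, with 3 at an unadjusted p under 0.05, and 1.51% of all genes were called. With the GC trend removed, 5 members were called for both agents against Corin in SKNO-1 (17.8% of all genes in that fit), and also 5 with the replicate block added (16.3%). With library totals only, 5 were called for both agents against DMSO in U-937 (64.4% of all genes). Leaving out 1 library, the number of members called ran from 1 to 3 for ATRA in SKNO-1, from 0 to 4 for both agents against Corin in SKNO-1, from 0 to 2 for the departure from additivity in SKNO-1 and from 1 to 3 for the response to both agents between lines. In the 3 SKNO-1 comparisons the highest number came with more calls over all genes: 29.1% and 24.7% without SKNO-1 DMSO replicate 1 or 2 for ATRA in SKNO-1, 38.9% and 38.9% for both agents against Corin, and 30.9% without replicate 2 for the departure. The cause of these shifts was not tested.

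Reversals met only results that were not called. With the GC trend removed, without and with the replicate block, the departure in SKNO-1 was -0.24 and -0.20 for CDKN1C and -0.16 and -0.16 for CDKN2D, and the response of CDKN2D to both agents between lines was 0.17 and 0.17. CDKN1C with both agents in SKNO-1 was -0.013 with GC trend and block. CDKN1B with ATRA in U-937 was -0.017 with size factors of the DESeq2 kind, -0.066 with library totals, -0.012 without a filter, -0.014 with DESeq2 and -0.00060 with only the libraries compared. CDKN1B for both agents against Corin in U-937 was -0.063 with library totals. Leaving out 1 library, CDKN1B ran from -0.14 to 0.19 for ATRA in SKNO-1, from -0.087 to 0.24 for both agents in SKNO-1, from -0.014 to 0.12 for both agents against ATRA in SKNO-1, from -0.041 to 0.051 for ATRA in U-937, from -0.00098 to 0.13 for both agents against Corin in U-937, from -0.0064 to 0.12 for the departure in U-937 and from -0.24 to 0.092 for the ATRA response between lines. CDKN2B ran from -1.46 to 0.35 for ATRA in SKNO-1, from -0.94 to 0.87 for the departure in SKNO-1 and from -0.48 to 1.33 for the ATRA response between lines. CDKN1C ran from -0.25 to 1.49 for the departure in SKNO-1, and CDKN2D from -0.42 to 0.014 for the response to both agents between lines.

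Counts over all genes moved by over 1.5 times in SKNO-1: 1181 for ATRA (239 to 5335), 6619 for Corin (3626 to 9520), 7828 for both agents against ATRA (4962 to 10907), 1822 for both agents against Corin (397 to 7440) and 81 for the departure (7 to 5648). The same held for Corin in U-937 (2293, from 1332 to 2688) and for the Corin response between lines (2538, from 1388 to 4471). CDKN1C and, in SKNO-1, CDKN2B had at most 71 and 15 counts, so small changes of these genes were not detectable at this depth.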
